A study of Rattus norvegicus with 4 samples.

Results

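Glutathione synthesis and the glutathione peroxidases were followed through 10 genes in rat macrophages exposed to zinc ferrite. The 10 genes were Gclc, Gclm, Gss, Gsr, Slc7a11, Slc3a2, Gpx1, Gpx3, Gpx4 and Glrx. A probe was taken for a gene when its transcript accession on the array carried that gene's symbol in the rat RefSeq table. This gave 13 probes on 32 spots per array for the 10 genes, out of 16526 named genes with a value on every array. The cells were NR8383, a line started from rat lung lavage and used as a model of the alveolar macrophage, labelled with 20 passages. All 4 samples analysed here had received zinc iron oxide at 17 µg/mL, the powder NRCWE021 of formula ZnFe2O4, during 4 h of exposure, and each is described as a biological replicate. Cultures of the same line without the particle are the controls named in the design, and their arrays were not analysed here. No gene is therefore said to rise or fall with exposure, and no test between groups was possible.

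Glutathione is a small thiol made from glutamate, cysteine and glycine, and it is the main soluble reductant of the cell. Cystine enters through an exchanger built from Slc7a11 and Slc3a2, the ligase of Gclc and Gclm joins glutamate to cysteine, and Gss adds glycine. The peroxidases use glutathione to reduce peroxides, Gsr returns the oxidised form to the reduced one, and Glrx uses glutathione to reduce mixed disulfides on proteins. In macrophages this cycle limits damage from the oxidants the cells make themselves, and many of its genes are known targets of the transcription factor NRF2.

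RNA was measured on 1-colour arrays that lay on 1 slide, with 1 array per replicate. Replicates 2 and 3 stood apart from replicates 1 and 4. The median signal of gene spots was 13.5, 542, 133 and 7.37 intensity units on replicates 1 to 4. The dimmest of 10 control RNAs added to each sample, called spike-ins, read 3.83, 537, 109 and 3.92 units in the same order, and 0, 35, 34 and 0 of its 35 spots were marked by the scanner software as well above background. A gene with a probe so marked is called detected. On replicates 2 and 3 the mark was thus given to the dimmest spike-in too, so counts on replicates 1 and 4 are given beside those on all arrays for the members and wherever a list's count differed. No gene spot was saturated. Of 13 macrophage markers measured, 11 were detected on all 4 arrays, the exceptions being Adgre1 and Marco. The counts for other cell types were 0 of 7 for lung epithelium, 1 of 5 for fibroblasts and 1 of 5 for T cells. They were 2 of 4 for neutrophils and 3 of 5 for endothelium, and 42.4% of all named genes were detected on all 4 arrays. A signal 3 SD above the dimmest spike-in on every array was reached by 5 of 13 macrophage markers and 1 of 5 for endothelium. It was reached by 0 markers of the other cell types and by 15.4% of all named genes. The part of other cell types in the signals was not tested. A lower signal could come from fewer cells, from less RNA per cell or from a difference in measurement between arrays, which cannot be told apart here. Spike-ins and negative control spots, which hold no RNA of the cells, differed between arrays too. The median negative control read 3.45, 23.0, 12.9 and 3.34 units on replicates 1 to 4.

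Of the 10 genes, 8 were detected on all 4 arrays, where 42.4% of all named genes were. The same 8 genes made up the detected ones on the pair of replicates 1 and 4, with 45.9% of all named genes. Array by array, 8, 9, 8 and 8 of the 10 genes were detected on replicates 1 to 4, beside 52.2%, 91.5%, 75.3% and 46.2% of all named genes. The 8 genes detected on every array were Gclc, Gss, Gsr, Slc7a11, Slc3a2, Gpx1, Gpx4 and Glrx. Gpx3 was detected on replicate 2 alone and Gclm on no array. Of the 13 probes, 10 were detected on all 4 arrays, against 39.8% of the probes of named genes. Another reading, called the spike-in threshold, required a signal 3 SD above the dimmest spike-in of the same array, which meant more than 9.05, 1119, 380 and 8.38 units on replicates 1 to 4. The lowest signal of a spot marked well above background was 15.2, 96.3, 56.6 and 13.8 units, so this threshold was the stricter one on replicates 2 and 3 and the looser one on replicates 1 and 4. Slc3a2, Gpx1, Gpx4 and Glrx passed it on all 4 arrays, 4 of 10 genes, against 15.4% of all named genes. Gclc, Gss, Gsr and Slc7a11 each passed it on 3 arrays, and Gclc and Gss missed it on replicate 2, Gsr and Slc7a11 on replicate 3.

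**Figure D1:**
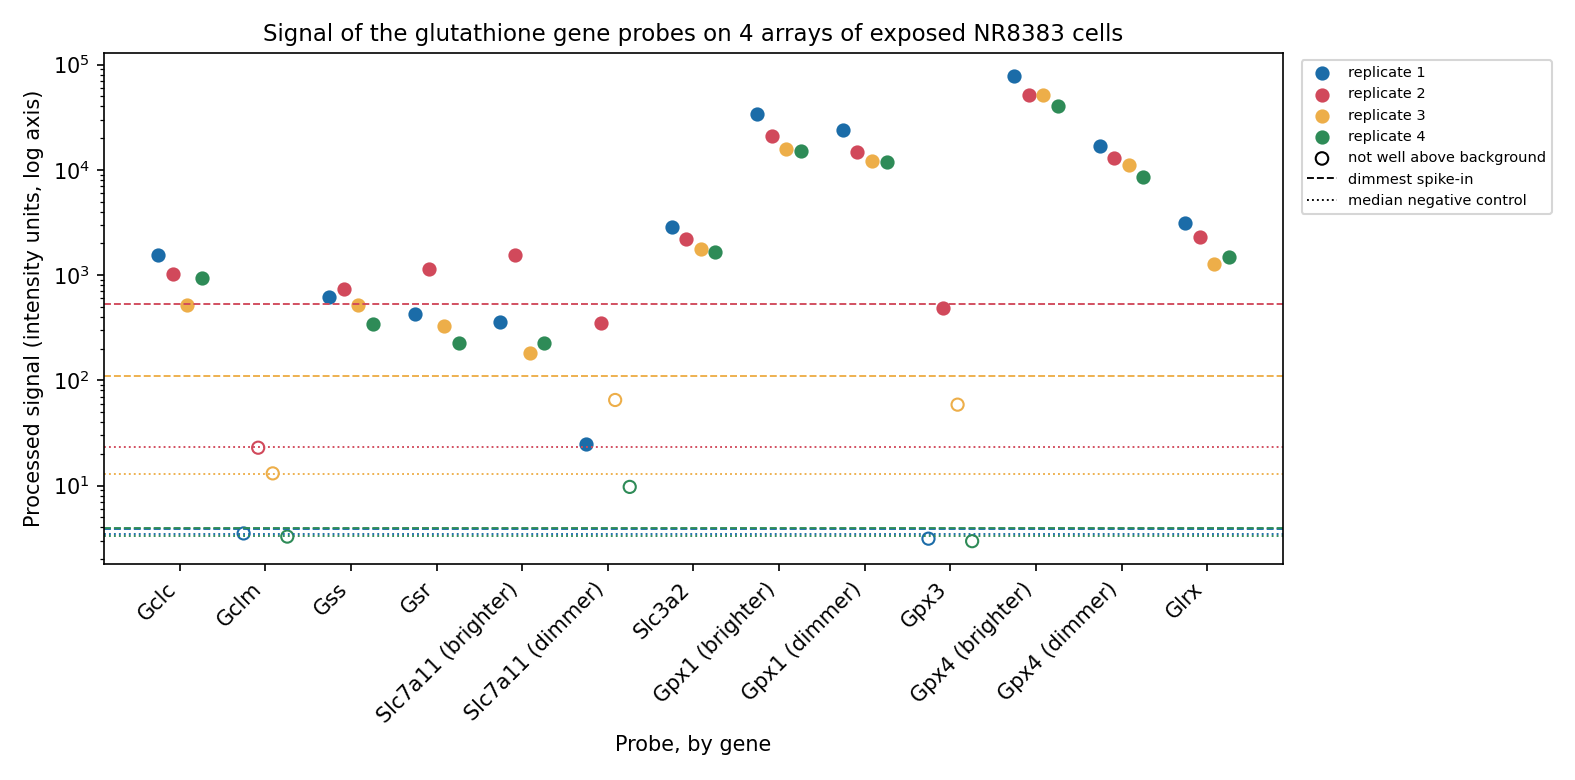
Processed signal in intensity units (log axis) of the 13 probes on replicates 1 to 4, with open circles for probes that were not detected. Dashed lines give the dimmest spike-in and dotted lines the median negative control of each array, and Gclm lies on the dotted line of its array on all 4.

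The cystine exchanger is made of a light chain, Slc7a11, that carries cystine in and glutamate out, and a heavy chain, Slc3a2, that brings several light chains to the cell surface. The single Slc3a2 probe read 2857, 2221, 1751 and 1671 units on replicates 1 to 4. These values lay within 1.71-fold of each other, the smallest span among the 13 probes, and the highest was on replicate 1. The brighter of the Slc7a11 probes read 359, 1552, 183 and 228 units on replicates 1 to 4. Its highest value, on replicate 2, was 8.50-fold its lowest, on replicate 3. These values were 2.89-fold and 1.68-fold the dimmest spike-in of their arrays. The dimmer Slc7a11 probe read 24.7, 349.7, 65.0 and 9.71 units and was detected on replicates 1 and 2 but not on 3 and 4. On replicates 1 and 2, where both probes were detected, the ratio of the brighter to the dimmer probe was 14.6 and 4.44. No ratio is given for the other arrays. On replicate 2 the dimmer probe read below the dimmest spike-in, at 0.65-fold, so signal over background limits the ratio of 4.44. The brighter Slc7a11 spot lay in the outermost row of the array. Repeated spots of other probes within 5 rows of an edge read a median of 1.03 to 1.05 times the inner spots of the same probe, and the part of this in the Slc7a11 values was not tested.

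Glutamate-cysteine ligase has a catalytic subunit, Gclc, and a modifier subunit, Gclm, that raises the affinity of the enzyme for glutamate and eases its feedback inhibition by glutathione. Gclc read 1553, 1025, 521 and 948 units on replicates 1 to 4, each the mean of 2 spots. The highest value, on replicate 1, was 2.98-fold the lowest, on replicate 3. The repeated Gclc spots differed by a coefficient of variation of 0.54%, 4.95%, 0.76% and 11.2%. Gclm read 3.51, 22.9, 13.0 and 3.27 units. The median of 308 negative control spots was 3.45, 23.0, 12.9 and 3.34 units on the same arrays, so the Gclm probe gave no signal apart from that of the controls on any array. Of all named genes, 6.46% were detected on no array. A single probe on 1 spot stood for Gclm, and whether it is able to bind the Gclm transcript of these cells was not tested.

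Promoter sequence is shown for Gclm, the gene detected on no array, and for Slc3a2, because these were the members with the motif described next. The 250 bases before each gene start in RefSeq were searched for TGACNNNGC, the core of the antioxidant response element that NRF2 binds, on both strands. Of 33469 promoters of the GRCr8 build, 10.1% held it. Among the 10 genes, 9 had an entry, with 12 starts, and the motif was found at 2 starts, one of Gclm and one of Slc3a2. Gsr had no entry. In both windows the motif lies on the strand opposite to the gene and is written in capitals. It begins at position -172 from the Gclm start and -45 from the Slc3a2 start that held it. That Slc3a2 start lies inside the gene, and the upstream Slc3a2 start held no match. The Gclm window is chr2:213031933-213032001, plus strand, and the Slc3a2 window is chr1:215039677-215039745, minus strand, both written along the gene.
Gclm: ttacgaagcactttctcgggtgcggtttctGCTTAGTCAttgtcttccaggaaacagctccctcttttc
Slc3a2: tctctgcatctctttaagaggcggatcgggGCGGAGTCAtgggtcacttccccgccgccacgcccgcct
A match describes the letters in the window and was not measured as a bound site. The Slc3a2 probe was detected on all 4 arrays and the Gclm probe on none.

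Gss, glutathione synthetase, completes the molecule by adding glycine. It read 625, 743, 518 and 346 units on replicates 1 to 4, and the highest value, on replicate 2, was 2.15-fold the lowest, on replicate 4. Gsr, glutathione reductase, regenerates glutathione with NADPH. It read 430.3, 1137, 327 and 229 units, so that replicate 2 stood above the other arrays by 2.64-fold or more.

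Gpx1 is the cytosolic and mitochondrial peroxidase that reduces hydrogen peroxide, and it carries selenocysteine in its active site. It was the most repeated of the 10 genes, with 10 spots for each of 2 probes. The brighter probe read 33805, 20865, 15768 and 15105 units on replicates 1 to 4. The dimmer probe read 23769.8, 14892, 12196 and 11854 units in the same order. The ratio of the probes was 1.42, 1.40, 1.29 and 1.27, and both gave the same order of the arrays. Repeated spots of the brighter probe had a coefficient of variation of 7.74%, 4.45%, 11.9% and 13.2% on replicates 1 to 4, and those of the dimmer probe 8.77%, 4.18%, 5.17% and 15.1%. Spots of the brighter probe ran from 30248 to 39204 units on replicate 1 and from 19642 to 22569.5 units on replicate 2. The spots of these arrays thus did not overlap before scaling, but repeated spots are not replicates of the cells. The brightest spike-in, which holds no RNA of the cells, read 44221 units on replicate 1 and 21914 on replicate 2. The part of such array differences in the Gpx1 signal was not tested. One spot of the dimmer probe was marked as an outlier on all 4 arrays. It read 10832, 12098, 2464 and 2657 units and was left out.

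**Figure D2:**
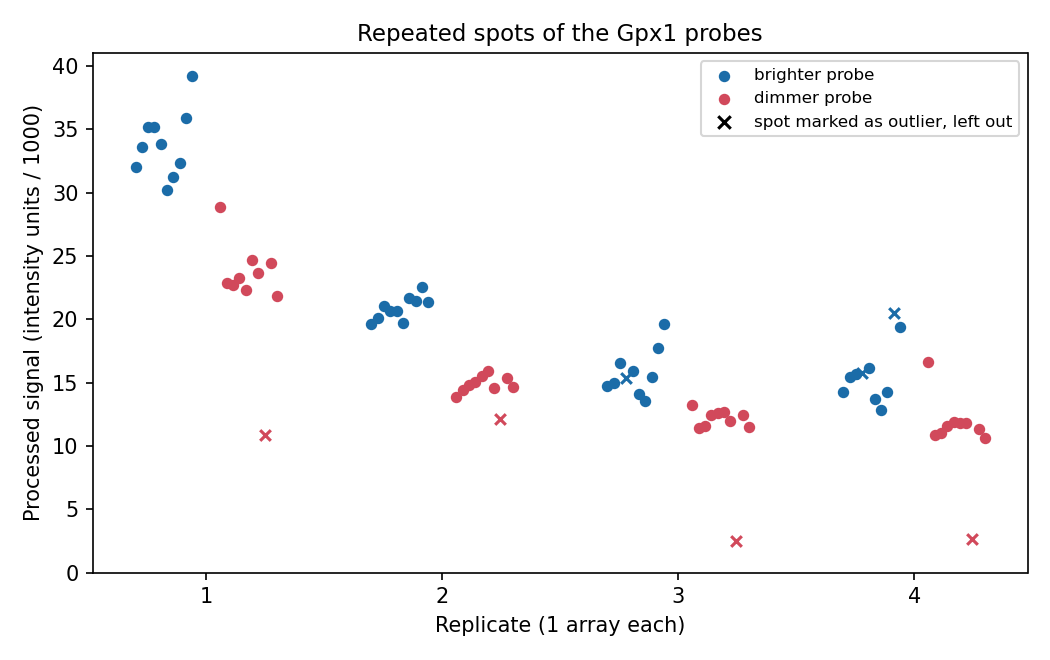
Processed signal in intensity units divided by 1000 of each repeated spot of both Gpx1 probes on replicates 1 to 4, with crosses for spots left out. The spots of the brighter probe lie between 30248 and 39204 units on replicate 1, above all its spots on the other arrays. The signals are not scaled between arrays.

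Gpx4 reduces peroxides of membrane lipids and is the peroxidase that holds back ferroptosis, a form of cell death driven by iron. Its brighter probe read 77494, 51215, 51165 and 40325 units on replicates 1 to 4. Its dimmer probe read 16828, 13016, 11160.3 and 8500.6 units in the same order. The ratio of the Gpx4 probes was 4.60, 3.93, 4.58 and 4.74, so they ran nearly in parallel, with an SD of the log2 ratio of 0.12 (n = 4). The signal on replicate 1 was 1.92-fold that on replicate 4 for the brighter probe and 1.98-fold for the dimmer one.

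Gpx3, the peroxidase secreted into plasma, is made mainly by the kidney. Its probe read 3.13, 487, 58.7 and 2.96 units on replicates 1 to 4. On replicates 1 and 4 these values were below the median negative control. On replicates 2 and 3 they were above that median but below the dimmest spike-in. Glrx, glutaredoxin 1 of the cytosol, read 3158, 2277, 1273 and 1481 units. All 4 values of Glrx exceeded the spike-in threshold of their array, and the highest was 2.48-fold the lowest.

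Levels were also scaled, as log2 signal minus the 75th percentile of the array over all probes, and are given as mean ± SD (n = 4). Gclc had a level of 2.51 ± 2.06, Gss of 1.70 ± 1.48 and Gsr of 1.40 ± 1.05. Slc7a11 had a level of 1.24 ± 1.19 and Slc3a2 of 3.65 ± 1.81. Gpx1 had a level of 6.93 ± 1.89, Gpx4 of 8.34 ± 1.85 and Glrx of 3.54 ± 1.86. These levels are not compared between genes, since each probe has its own affinity. For all 8 genes the levels on replicates 1 and 4 were above those on replicates 2 and 3, as for 88.0% of the 6904 named genes detected through their brightest probe on every array. For 7 of 8 genes the lowest level was on replicate 2, as for 79.4% of all such genes, and Slc7a11 had its lowest level, -0.27, on replicate 3. The median SD of the 8 genes was 1.83 log2 units, against 1.55 for all such genes.

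When the mean of the 3 brightest spike-ins took the place of the percentile, the median SD was 0.51 for the 8 genes and 0.73 for all genes. On that scale Gpx4 had the lowest SD, 0.22, followed by Slc3a2 at 0.27 and Gpx1 at 0.40. Slc7a11 had the highest SD and Gsr the next, 1.08. The SDs of single genes therefore depend on the scaling, and their order differed between scalings. With the percentile, the highest SD was that of Gclc, 2.06, and the lowest that of Gsr, 1.05.

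**Figure D3:**
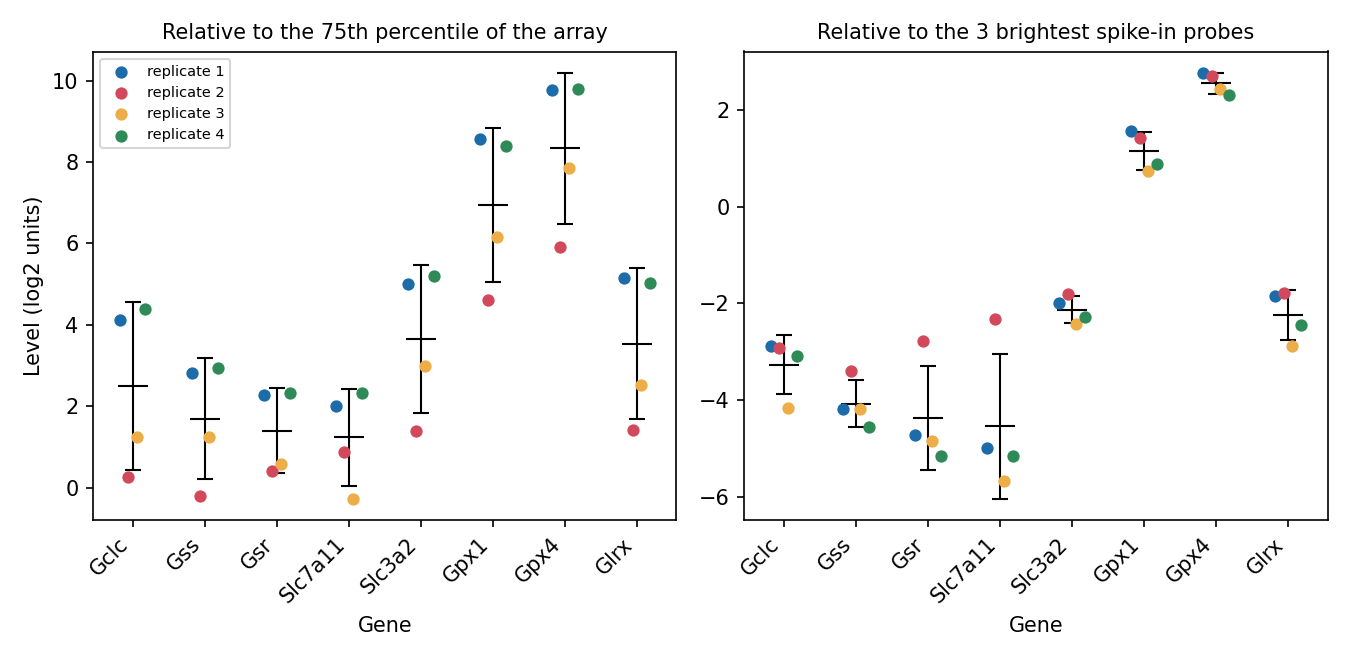
Level in log2 units of the 8 genes detected on all arrays, with the array's 75th percentile (left) or the 3 brightest spike-ins (right) subtracted, with bars for mean ± SD over 4 arrays. On the left replicates 1 and 4 lie above replicates 2 and 3 for each gene, and on the right replicate 2 is the highest for Gss, Gsr, Slc7a11, Slc3a2 and Glrx.

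Before any scaling, replicate 2 read higher than replicate 1 for 3 of the 8 genes and lower for 5. The signal on replicate 2 was higher for Gss, Gsr and Slc7a11, by 1.19-, 2.64- and 4.32-fold. It was lower for Gclc, Slc3a2, Gpx1, Gpx4 and Glrx, at 0.66, 0.78, 0.62, 0.66 and 0.72 times that on replicate 1. The first 3 genes read under 1000 units on replicate 1 and the other 5 read more, a split chosen after their values were seen that uses one of the values in the ratio. Among all named genes on all arrays, 82.9% of 4425 genes under 1000 units and 13.2% of 2479 genes at or above it were higher on replicate 2. Nothing is read from these shares about the members, since a low value on replicate 1 enters both the split and the ratio.

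Replicates 1 and 4, the arrays on which the dimmest spike-in was not detected, were also compared with each other. The signal on replicate 1 exceeded that on replicate 4 for all 8 genes, by 1.57-fold for Slc7a11 to 2.24-fold for Gpx1, with a median of 1.95-fold for all named genes on all arrays. After scaling, the difference between replicates 1 and 4 was -0.26 log2 units for Gclc, -0.12 for Gss and -0.06 for Gsr. It was -0.32 for Slc7a11, -0.20 for Slc3a2 and -0.03 for Gpx4, and 0.19 for Gpx1 and 0.12 for Glrx. The middle 80% of named genes ran from -0.42 to 0.40, and all 8 genes lay within that range. The median absolute difference was 0.16 for the 8 genes and 0.20 for all genes.

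**Figure D4:**
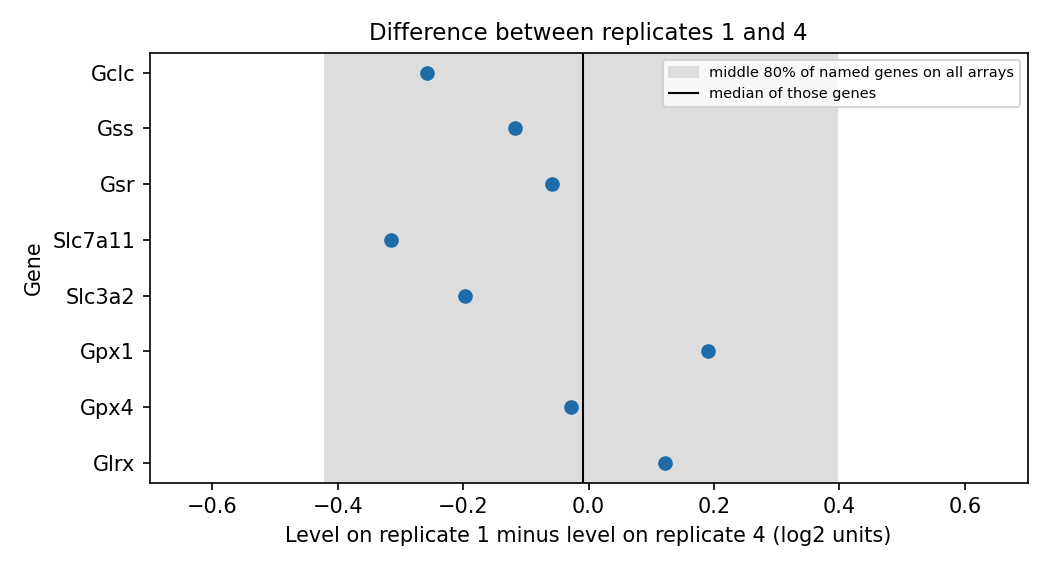
Level on replicate 1 minus level on replicate 4, in log2 units, for the 8 genes, with a grey band for the middle 80% of named genes and a line at their median. Each of the 8 points lies inside the band.

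The other genes of glutathione metabolism were taken from 9 lists by role, with 78 measured genes. Of these, 45 (57.7%) were detected on all 4 arrays, against 42.4% of all named genes, and 50 (64.1%) on replicates 1 and 4, against 45.9%. The spike-in threshold was passed on all arrays by 26 (33.3%), against 15.4% of all named genes. By list these were 1 of 5 other peroxidases, 8 of 21 transferases, 2 of 2 glutaredoxins and 1 of 13 breakdown genes. They were also 4 of 16 supply genes, 1 of 4 exporters and 1 of 7 genes of selenocysteine insertion. The rest were 3 of 5 lipid peroxide genes and 5 of 5 aldehyde and peroxide enzymes. Levels of the 78 genes are on the percentile scale, and their SDs depend on the scaling as those of the members do.

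Among the other glutathione peroxidases, 0 of 5 were detected on all 4 arrays, and 0 of 5 on replicates 1 and 4. Gpx2, the peroxidase of gut epithelium, read 6.70, 962, 220.1 and 5.17 units on replicates 1 to 4. Gpx7, a peroxidase of the endoplasmic reticulum, read 3.42, 881, 205 and 3.27 units. Gpx8, its membrane-bound relative, was detected on replicates 1 to 3 but not on 4, where it read 9.60 units. Gpx5, known from the epididymis, was detected on replicate 2 alone, and Gpx6 on no array. Gpx8 nevertheless passed the spike-in threshold on all 4 arrays, with 22.4, 2009, 426 and 9.60 units, as the 1 gene of this list that did, and on replicate 4 that threshold was the looser one. Of all 8 glutathione peroxidases, Gpx1 and Gpx4 were the ones both detected and above that threshold on every array.

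Of 21 measured glutathione transferases, which join glutathione to reactive compounds, 10 were detected on all 4 arrays. Gsta1 had a level of 3.74 ± 1.96, Gstp1 of 4.21 ± 1.76, Gstm4 of 1.36 ± 0.29 and Gsta5 of -0.85 ± 0.20 (SD, n = 4). With the 3 brightest spike-ins in place of the percentile, called spike-in scaling, their SDs were 0.56, 0.43, 1.73 and 2.09. The small SDs of Gstm4 and Gsta5 thus belong to the percentile scale. Members of the Gsta and Gstm families are close in sequence, and signal shared between them by cross-hybridisation was not tested. Both other glutaredoxins measured were detected on all arrays, with Glrx3 at 3.70 ± 1.57 and Glrx5 at 3.03 ± 1.87. All 5 enzymes that use glutathione on aldehydes and peroxides were as well, namely Glo1, Hagh, Esd, Adh5 and Prdx6, and all 5 passed the spike-in threshold on every array.

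Cysteine can also be made inside the cell from methionine by transsulfuration, with Cbs and Cth as its enzymes. Cbs read 5.38, 23.9, 12.7 and 3.32 units on replicates 1 to 4 and was detected on no array. Cth read 13.8, 446, 77.9 and 6.06 units and was detected on replicate 2 alone. Both were singled out after their values were seen. In the list of cysteine and glutamate supply 9 of 16 genes were detected on all arrays and 10 on replicates 1 and 4, among them Mat2a at -0.30 ± 1.16, Ahcy at 4.74 ± 1.95, Slc1a5 at 2.41 ± 1.61 and Slc7a5 at -0.04 ± 0.29. With spike-in scaling the SDs of Mat2a, Ahcy, Slc1a5 and Slc7a5 were 0.79, 0.23, 0.54 and 1.95. Slc7a5 is another light chain that pairs with Slc3a2.

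Genes of glutathione breakdown were detected on all 4 arrays for 7 of 13 and on replicates 1 and 4 for 8. Chac1, which cleaves glutathione in the cytosol and is a known target of the ATF4 pathway, read 168, 304, 158 and 128 units and had a level of 0.12 ± 1.35. The others named by their place in the list were Ggt7 at -0.63 ± 0.88, Chac2 at -0.39 ± 0.38 and Ggct at 1.03 ± 0.53. Of 4 exporters, Abcc1, Abcc4 and Abcc5 were detected on all arrays, with levels of 1.66 ± 1.03, 1.03 ± 1.12 and 2.34 ± 1.84, and Abcc2 was not on replicate 3, so that all 4 were detected on replicates 1 and 4.

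Gpx1, Gpx3 and Gpx4 are selenoproteins. The genes that insert selenocysteine were detected on all 4 arrays for 6 of 7 and on replicates 1 and 4 for 7 of 7. Among all named genes these shares were 42.4% and 45.9%. The spike-in threshold was passed on all arrays by 1 of the 7 genes, against 15.4% of all named genes. Sephs2, which makes the selenium donor, had a level of 1.97 ± 1.83, and Sepsecs, which converts the tRNA-bound serine, of 0.62 ± 0.87. Pstk, the kinase before that step, had a level of -0.36 ± 1.38, and Secisbp2, which binds the selenocysteine insertion element of the mRNA, of 1.33 ± 1.88. Among genes that handle lipid peroxides beside Gpx4, Lpcat3, Aifm2 and Alox5 were detected on all arrays, with levels of 3.15 ± 2.01, 1.47 ± 0.29 and 4.99 ± 1.85. Acsl4 was on replicates 1 and 4 only, which made 4 of 5 on that pair, and Alox15 on replicates 2 and 3 only. With spike-in scaling the SDs of Lpcat3, Aifm2 and Alox5 were 0.38, 1.65 and 0.32.

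**Figure D5:**
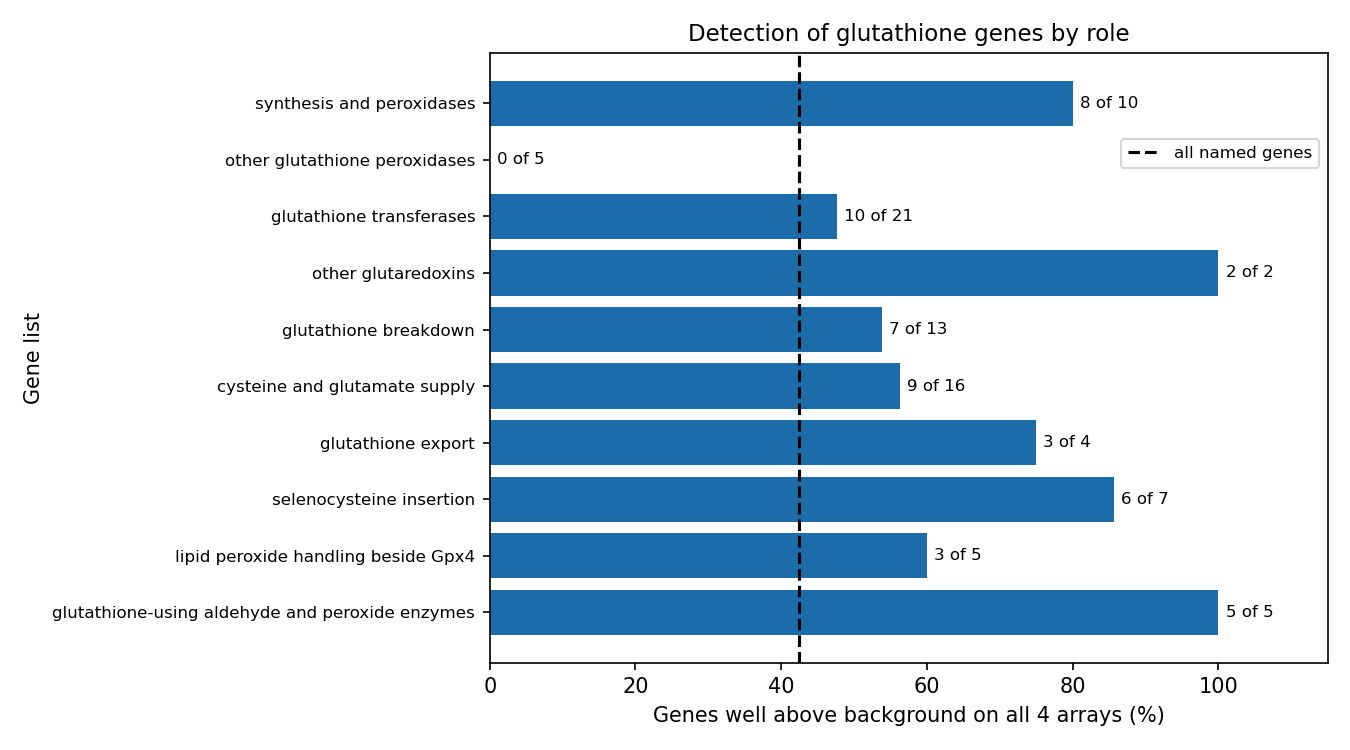
Share in percent of the measured genes of each list that were detected on all 4 arrays, with counts beside the bars and a dashed line at 42.4% for all named genes. The other glutathione peroxidases stand at 0 of 5, and the glutathione-using aldehyde and peroxide enzymes at 5 of 5.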

How the data were processed

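Total RNA of 4 cultures was hybridised to 1-colour (Cy3) arrays. The authors' intensity values were read with Agilent Feature Extraction 11.0.1.1, per the file headers and the submitters' processing notes. A normalization between arrays is not given in the sources used here. The deposited value table equals the median spot intensity on all 62976 spots of each array. Its column medians were 54, 604.5, 219 and 46.

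Spots marked as non-uniform or population outliers were left out (832, 946, 1109 and 868 gene spots). Spots of a probe were averaged as log2 signal, and a probe counted as well above background when over 50% of its kept spots carried the scanner's flag. Of 45598 probes, 45385 had a value on every array and 21023 a symbol, through accessions without versions and the RefSeq table of GRCr8. A gene counted as detected if any probe was, and its level is that of its brightest probe. The procedure was tested on simulated data. The simulated arrays each differed by a constant log2 shift, so the test does not cover the raised dim signals of replicates 2 and 3. Python 3.11.15, pandas 2.3.3 and limma 3.58.1 were used.

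The genes and lists were chosen with earlier results of these data known. Every member is named, every gene of a list of 5 or fewer, and otherwise the first 4 of the list detected on all arrays. The scanner's error estimate was 10.0% to 11.9% of the signal for the chosen probes of detected genes. With 4 arrays of 1 group, their number limits the precision, and no test between groups was made. Dixon's ratio of gap to range exceeded its critical value of 0.829 for no array in the members' levels. With spike-in scaling it came close, at 0.828 for Gclc and 0.822 for Gsr. The ratio looks for 1 stray array, so it is not suited to show replicates 2 and 3 standing apart together.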

Additional observations from a re-analysis of the deposited data

How the results depend on the processing

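The count of 8 of 10 genes well above background on all arrays was also 8 with the other detection flag, with outlier spots kept and with the brightest probe alone. It was 7 when every probe had to pass. With replicates 2 and 3 alone and without each replicate in turn it was 8 as well. A count over fewer arrays cannot fall below that over all 4, so these last settings could not have lowered it. When a signal 3 SD over that of the dimmest spike-in was required it was 4, the count of probes 6 of 13 and that of other glutathione genes 26, against 8, 10 and 45. The other glutathione genes numbered 56 with the other flag, 41 when every probe had to pass, 61 with replicates 2 and 3 only, and 45 to 49 without each replicate. Their counts over fewer arrays could not be under 45 for the same reason. The median SD of member levels, 1.83, was 0.38 with the percentile taken over probes well above background on all arrays, 0.19 with quantile normalization, 0.51 with spike-in scaling and 0.57 with no scaling. It was 0.11 with replicates 1 and 4 only, 0.91 with replicates 2 and 3 only, and 1.28 to 2.14 without each replicate. The cause of these shifts was not tested beyond the scaling itself. Levels under the other percentile, spike-in and unscaled settings have another zero point, which shifts all genes of an array alike, and are not compared. Among the other alternatives, the level of Slc7a11 as the mean of its probes, -0.27 against 1.24, was the one that moved by over 1 SD. A mean without 1 replicate or over 1 pair cannot move by over 1 SD of the 4 values. Those settings could therefore not have been counted as moved. The median shift of the levels was 1.45 with replicates 1 and 4 only and -1.45 with replicates 2 and 3 only. Leaving out replicate 2 raised the levels by a median of 0.73. Naming probes by a gene name column was not run, since the files used here hold none, and normexp used the median spot signal. No paired analysis was possible because the samples form 1 group. Signal over background limits Gclm, Gpx3 and the dimmer Slc7a11 probe. It also limits Gclc and Gss on replicate 2 and Gsr and the brighter Slc7a11 probe on replicate 3, which missed the spike-in threshold there.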

Other observations

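Of the 78 other glutathione genes, 12 were detected on replicates 2 and 3 but on neither replicate 1 nor 4, and 8 on replicate 2 alone, a pattern of 12.8% of all named genes. The reverse of the first pattern held for 2 genes. Sephs1, a relative of the selenium donor enzyme Sephs2, read 29.2, 89.3, 12.3 and 32.5 units on replicates 1 to 4 and was detected on replicates 1 and 4 only. Acsl4, which activates polyunsaturated fatty acids for use in membrane lipids, read 140.5, 94.1, 26.9 and 74.7 units with the same pattern. Among all named genes, 0.72% were like these 2 genes and 27.7% were the reverse.

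Gstm1, a glutathione transferase, was detected by 1 of its 2 probes on replicate 1. One probe read 59.5, 399.5, 93.0 and 3.74 units on replicates 1 to 4 and the other 3.18, 305, 113 and 2.81 units. The first was detected on replicates 1 to 3 and not on replicate 4, and the other on replicates 2 and 3 only.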
